A study of Mus musculus with 10 samples.

Results

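Expression of 10 genes of inflammatory cell death was followed in whole mouse retinas after injection of either of 2 viral vectors into the eye. The genes were Nlrp3, Pycard, Casp1, Casp4, Gsdmd, Il1b, Il18, Casp8, Ripk3 and Mlkl. They were chosen by symbol from a fixed list, and each matched 1 of the 57010 gene identifiers in the deposited table. Mice aged 6 to 8 weeks received an adeno-associated virus carrying green fluorescent protein into the vitreous, and retinas were collected 14 days later for bulk RNA sequencing. In one group of 5 mice the vector was AAV2-GFP, a serotype widely used for the inner retina. In the other group of 5 mice it was AAV206-GFP, in a study whose title concerns a vector for the retinal pigment epithelium. Every mouse was thus injected and received the same reporter, and uninjected retinas were not analysed here. Strain, sex, vector dose, the promoter driving the reporter and whether retinas were pooled are not given in the sources used here.

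Inflammasomes are protein platforms that assemble when a sensor such as NLRP3 detects damage or microbial products and recruits the adaptor ASC, the product of Pycard. They activate caspase-1, which matures interleukin-1 beta and interleukin-18 and cleaves gasdermin D, whose fragment forms pores in the plasma membrane (pyroptosis). In necroptosis, the kinase RIPK3 phosphorylates MLKL, which ruptures the membrane, and caspase-8 holds this route in check. In retina these pathways are studied mainly in microglia, infiltrating leukocytes and stressed photoreceptors or pigment epithelium.

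The libraries held between 10989843 and 12752604 counts, and levels were expressed as CPM, the count scaled to the size of each library. A floor was set at 3 counts, which is 0.232 to 0.274 CPM depending on the library. This floor and all counting intervals cover counting error only. Markers of rods, the main cells of the mouse retina, summed to 49310 CPM or more in every library. The library AAV2-GFP replicate 1 stood apart in its immune markers. All 13 microglia and macrophage markers, all 9 T and NK lymphocyte markers and all 4 B lymphocyte markers were highest in it. The microglia and macrophage sum was 309.5 CPM there, against 46.7 to 73.1 CPM in the other AAV2-GFP libraries and 41.3 to 50.98 CPM with AAV206-GFP. The T and NK lymphocyte sum was 24.1 CPM, against 0.449 to 1.29 and 0.848 to 1.35 CPM, with Cd3d, Cd3g and Nkg7 at 0 in all AAV206-GFP libraries. For monocytes and neutrophils the sum was 23.5 CPM, against 0.449 to 2.17 and 0.518 to 0.841 CPM. Of the 8 markers in that list, 3 were highest in AAV2-GFP replicate 1 (Ccr2, Ly6c2 and Csf3r), while S100a9, Mpo and Retnlg were at 0 in it. The neutrophil genes S100a8 and Ly6g were at 0 in all 10 libraries, and Ccr2, a monocyte receptor, was at 0 in all AAV206-GFP libraries. B lymphocyte markers summed to 4.25 CPM, against at most 0.898 and at most 0.421 CPM, with Ms4a1 at 0 in the other 9 libraries. In whole tissue, more cells of a type and more RNA per cell cannot be told apart.

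**Figure D1:**
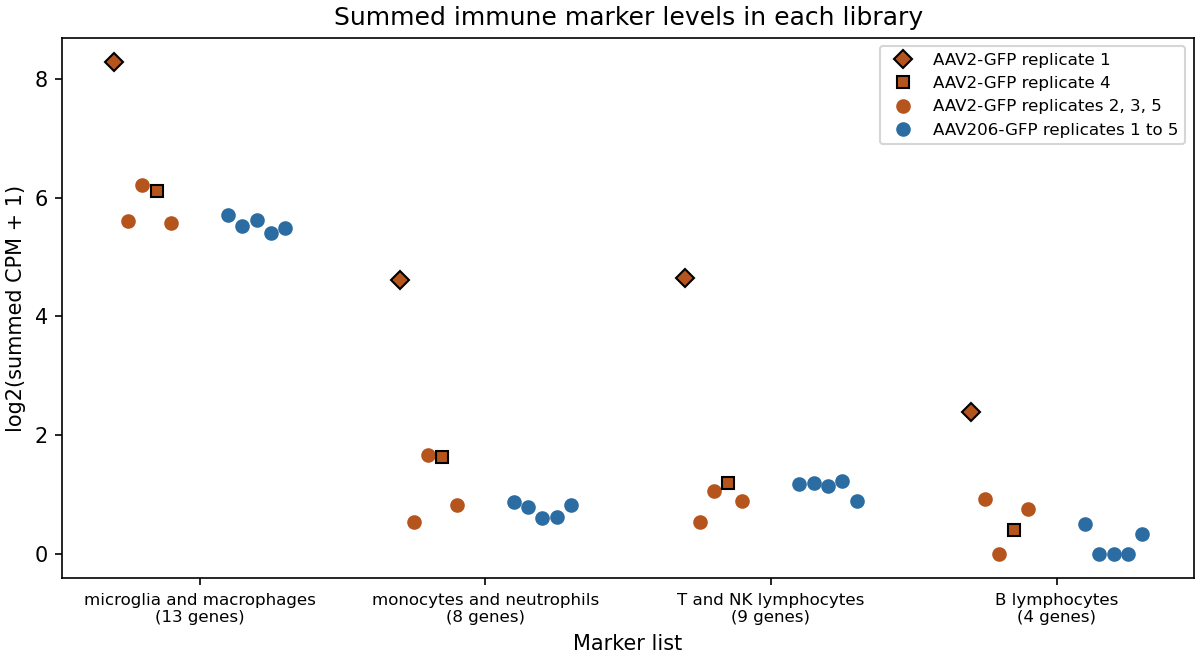
Summed level of the markers of 4 immune cell types in each library, as log2(summed CPM + 1) on the vertical axis, with 1 symbol per library (5 per group). AAV2-GFP replicate 1 (diamond) lies above the other 9 libraries in each list, from 4.25 CPM for B lymphocytes to 309.5 CPM for microglia and macrophages.

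Promoter sequences of these genes were searched for 3 motifs of inflammatory transcription factors. The RefSeq table (GRCm38.p6) held windows for 9 of the 10 genes, from 250 bases before to 50 bases after the annotated start of transcription; Gsdmd was not among them. Both strands were searched for the core of the interferon-stimulated response element (GAAANNGAA), the gamma-activated site bound by STAT factors (TTCNNNGAA) and a kappa-B site of the NF-kappa-B family (GGGANTTCC). The first and the second motif can share bases. These motifs occurred in 8.56%, 8.30% and 1.68% of all 32851 windows in the table, and at least 1 of them in 17.2%. Among the genes, 2 of 9 held a match. This is a count by gene, and the 9 genes had 11 windows, whereas the shares above are by window. Casp4 had a pair of kappa-B matches, starting 92 and 39 bases before the start of the printed window's transcript and 103 and 50 bases before a second annotated start, and Ripk3 had 1 interferon-stimulated core, starting at base 15 after its own start. A match is a description of letters and not of binding. The windows of both genes are printed with the matches in capitals, and those of the cytokines Il1b and Il18 are shown because caspase-1 matures both while their levels followed different patterns. They lie at chr9:5308599-5308898 (plus strand), chr14:55788808-55789107 (minus strand), chr2:129371090-129371389 (minus strand) and chr9:50554450-50554749 (plus strand), each written 5′ to 3′ on the strand of the gene.
Casp4: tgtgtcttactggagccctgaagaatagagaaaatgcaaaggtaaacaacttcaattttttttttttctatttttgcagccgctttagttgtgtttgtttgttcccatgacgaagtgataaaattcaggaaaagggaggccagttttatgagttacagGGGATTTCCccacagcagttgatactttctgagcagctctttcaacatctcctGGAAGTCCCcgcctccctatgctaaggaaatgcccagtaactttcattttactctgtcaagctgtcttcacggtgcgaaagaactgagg
Ripk3: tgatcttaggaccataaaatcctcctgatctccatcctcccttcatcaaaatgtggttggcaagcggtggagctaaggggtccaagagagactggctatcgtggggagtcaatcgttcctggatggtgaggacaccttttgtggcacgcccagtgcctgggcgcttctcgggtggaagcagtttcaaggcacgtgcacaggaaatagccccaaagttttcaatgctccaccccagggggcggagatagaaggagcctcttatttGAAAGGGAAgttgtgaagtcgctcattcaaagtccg
Il1b: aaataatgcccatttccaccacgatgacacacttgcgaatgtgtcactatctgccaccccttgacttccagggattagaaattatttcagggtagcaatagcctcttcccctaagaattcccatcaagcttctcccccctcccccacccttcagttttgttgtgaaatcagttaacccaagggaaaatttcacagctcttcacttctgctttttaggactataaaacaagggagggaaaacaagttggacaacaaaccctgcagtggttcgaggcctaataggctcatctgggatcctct
Il18: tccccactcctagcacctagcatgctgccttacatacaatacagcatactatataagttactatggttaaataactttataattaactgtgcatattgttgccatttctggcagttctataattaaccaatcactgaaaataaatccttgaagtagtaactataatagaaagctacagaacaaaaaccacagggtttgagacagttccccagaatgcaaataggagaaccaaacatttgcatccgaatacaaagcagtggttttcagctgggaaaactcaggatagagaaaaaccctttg

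Across the genes, levels were low, and 1 retina stood above the other 9. Summed over all 10 genes, AAV2-GFP replicates 1 to 5 had 23.5, 5.21, 5.49, 7.66 and 6.41 CPM, and AAV206-GFP replicates 1 to 5 had 5.72, 5.29, 4.57, 5.92 and 4.24 CPM. The first AAV2-GFP retina lay far above the other 9, whose ranges overlapped. It was the highest of the 10 libraries for 9 of the 10 genes, the exception being Il18. By comparison, it was the highest for 11.3% of all tested genes and for 18.0% of the 12903 genes with counts that were too low to be tested. All 10 genes exceeded 3 counts in this library, against 3 to 6 of them in each of the others. The group sums were 9.66 ± 7.80 CPM for AAV2-GFP and 5.15 ± 0.725 CPM for AAV206-GFP (SD, n = 5). Without that retina the AAV2-GFP sum was 6.19 ± 1.11 CPM (SD, n = 4).

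**Figure D2:**
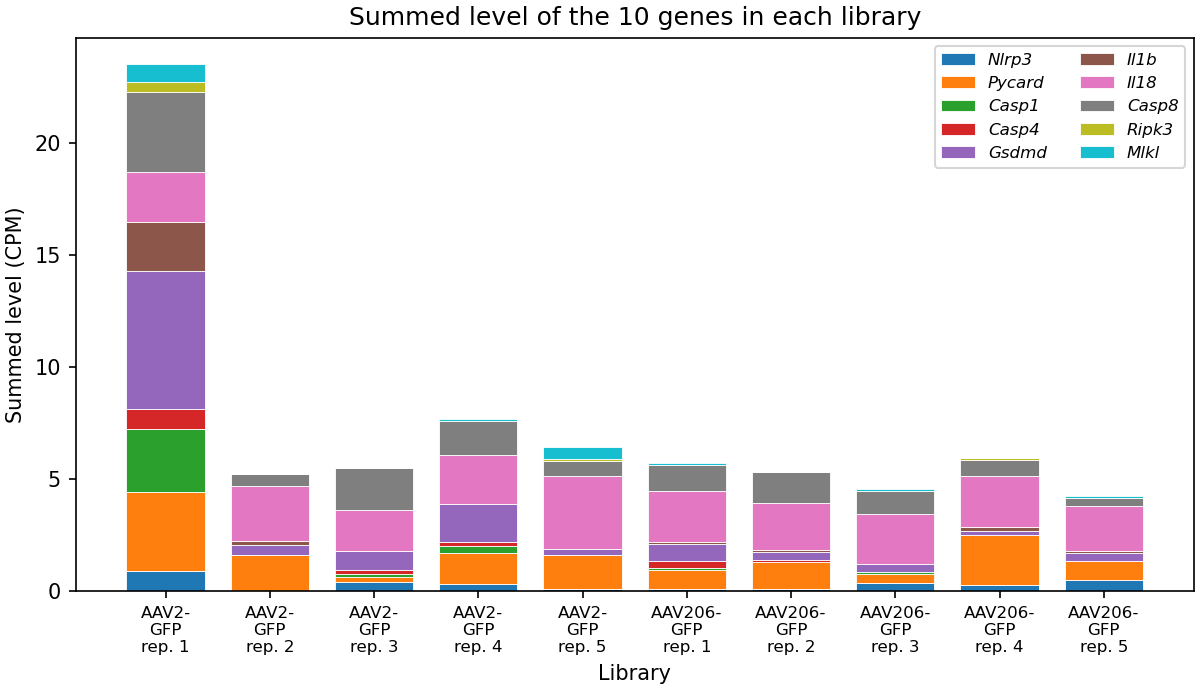
Summed level of the 10 genes in each library (CPM, vertical axis), with the share of each gene as a coloured segment. AAV2-GFP replicate 1 reaches 23.5 CPM, and the other 9 libraries lie between 4.24 and 7.66 CPM.

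No gene of the 10 passed the test between vectors. Only Casp8, Pycard and Il18 had enough counts in enough libraries to be tested, and 0 of these 3 had an adjusted p-value under 0.05 (edgeR quasi-likelihood test, Benjamini-Hochberg over 15539 genes). DESeq2 and limma-voom also called 0 of them, and none was under 0.05 before adjustment with edgeR. Over all tested genes 11.2% passed. The values of the 2 groups overlapped for all 10 genes. For Casp1, Casp4, Il1b, Ripk3 and Mlkl this was certain, since each had values of 0 in both groups. Among all tested genes 9.78% showed no overlap, a share that covers only Casp8, Pycard and Il18 of the 10. The remaining 7 genes fell under the filter on low counts because their counts were high in too few libraries, so their values are given as levels.

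**Figure D3:**
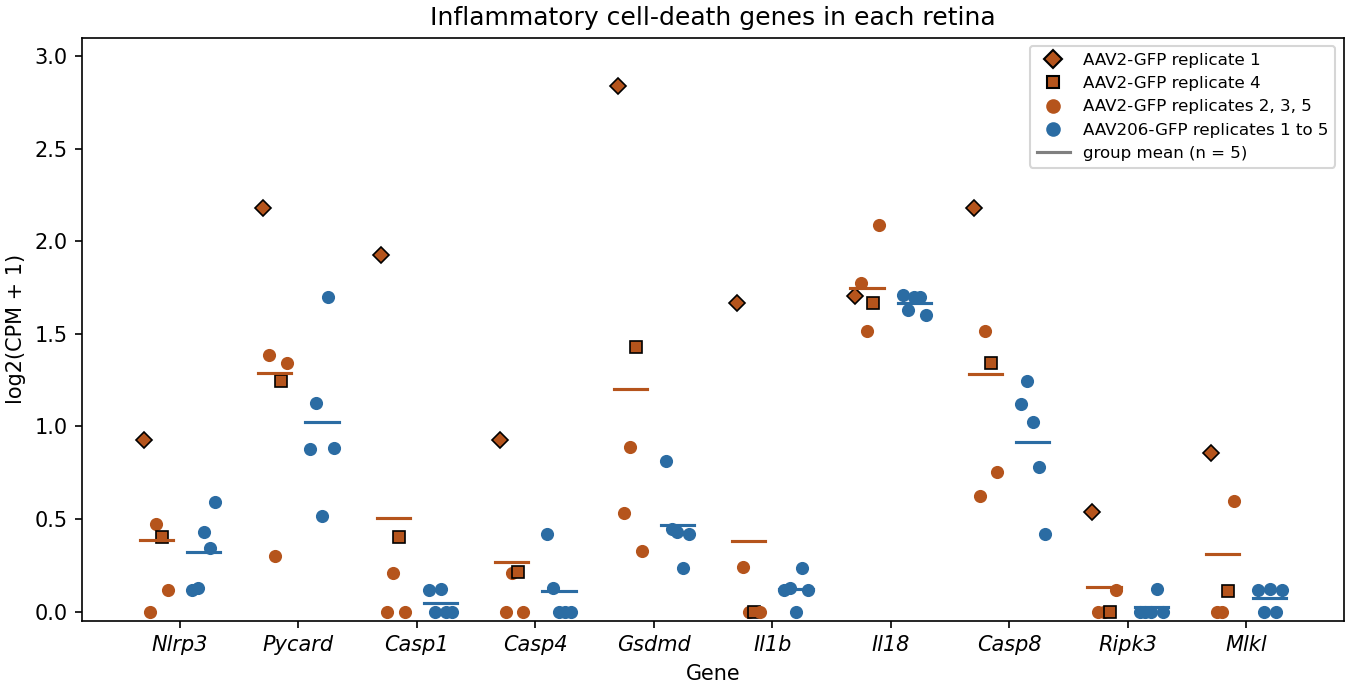
Level of each of the 10 genes in every retina, as log2(CPM + 1) on the vertical axis, with 1 symbol per library and a line at the group mean (n = 5). AAV2-GFP replicate 1 (diamond) is the highest point for 9 genes, and for Il18 it lies among the others.

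The sensor and the adaptor of the inflammasome differed in abundance. Nlrp3 (ENSMUSG00000032691) had 0.904, 0, 0.387, 0.323 and 0.0854 CPM in AAV2-GFP replicates 1 to 5, and 0.0841, 0.0912, 0.345, 0.269 and 0.509 CPM in AAV206-GFP replicates 1 to 5. Apart from the first value these lay near or under the floor in both groups, and the highest of them was in an AAV206-GFP retina. The group means were 0.340 ± 0.354 and 0.260 ± 0.179 CPM (SD, n = 5). Pycard (ENSMUSG00000030793), encoding the adaptor ASC, had 3.53, 1.62, 0.232, 1.37 and 1.54 CPM in the AAV2-GFP retinas, and 0.841, 1.19, 0.431, 2.24 and 0.848 CPM in the AAV206-GFP retinas. Its second highest value was in AAV206-GFP replicate 4, and the groups overlapped over most of their range. The log2 fold change of AAV206-GFP over AAV2-GFP was -0.57 ± 0.52 (SE, edgeR adjusted p = 0.511), and -0.09 without AAV2-GFP replicate 1. Pycard counts carried decimals in 5 libraries, and 12.8% of its annotated exon bases are shared with Gm45205 on the opposite strand, so its level is uncertain.

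The inflammatory caspases were near or under the floor outside 1 retina. Casp1 (ENSMUSG00000025888), encoding the protease that matures both cytokines, had 2.80, 0, 0.155, 0.323 and 0 CPM in the AAV2-GFP retinas, and 0.0841, 0, 0.0863, 0 and 0 CPM in the AAV206-GFP retinas. In counts, the first AAV2-GFP library held 31, the other 4 AAV2-GFP libraries held 6 in all, and the 5 AAV206-GFP libraries held 2 in all. The first of these is 2.80 CPM with a 95% exact Poisson interval of 1.90 to 3.98, and the AAV206-GFP sum is 0.0349 CPM with an interval of 0.00422 to 0.126. Casp4 (ENSMUSG00000033538), known in mouse as caspase-11 and activated by lipopolysaccharide in the cytosol, had 0.904, 0, 0.155, 0.161 and 0 CPM with AAV2-GFP. With AAV206-GFP it had 0.337, 0.0912, 0, 0 and 0 CPM. Beyond the first AAV2-GFP retina, Casp4 exceeded 3 counts in 1 library, AAV206-GFP replicate 1. The Casp1 and Casp4 genes lie side by side on chromosome 9 (GENCODE M21, GRCm38: 5298517 to 5307265 and 5308828 to 5336783).

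Gasdermin D was the most abundant of these genes in the retina that stood apart. Gsdmd (ENSMUSG00000022575) had 6.15, 0.449, 0.851, 1.69 and 0.256 CPM in the AAV2-GFP retinas, and 0.757, 0.365, 0.345, 0.179 and 0.339 CPM in the AAV206-GFP retinas. The highest values were in AAV2-GFP replicates 1, 4 and 3, and replicates 2 and 5 lay within the AAV206-GFP range. Group means were 1.88 ± 2.45 and 0.397 ± 0.215 CPM (SD, n = 5), and the AAV2-GFP mean without its first retina was 0.813 ± 0.638 CPM (SD, n = 4). In the fit without a filter on low counts, Gsdmd passed with a log2 fold change of -2.20 (edgeR adjusted p = 0.0365), where 6.42% of 28442 genes passed. Leaving out AAV2-GFP replicate 1 from that fit gave -1.02 (edgeR adjusted p = 0.355), with 8.30% of genes passing. The call was also lost on leaving out any 1 of AAV206-GFP replicates 2 to 5 (edgeR adjusted p from 0.0625 to 0.0801). In the same fit, Casp1 had a log2 fold change of -3.86 (edgeR adjusted p = 0.0510), and -1.55 without AAV2-GFP replicate 1 (edgeR adjusted p = 0.552). It passed on leaving out AAV2-GFP replicate 2, 3 or 5 (edgeR adjusted p from 0.0177 to 0.0353). Immune markers were highest in the same retina, and their part in these values was not tested.

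The cytokines matured by caspase-1 showed different patterns. Il1b (ENSMUSG00000027398), encoding interleukin-1 beta, had 2.17, 0.180, 0, 0 and 0 CPM in the AAV2-GFP retinas, and 0.0841, 0.0912, 0, 0.179 and 0.0848 CPM in the AAV206-GFP retinas. The first AAV2-GFP library held 24 counts, the other 4 held 2 in all, and the AAV206-GFP libraries held 5 in all. Il1b shares 25 exon bases with Il1bos on the opposite strand. Il18 (ENSMUSG00000039217), encoding interleukin-18, had 2.26, 2.43, 1.86, 2.18 and 3.25 CPM in the AAV2-GFP retinas, and 2.27, 2.098, 2.24, 2.24 and 2.04 CPM in the AAV206-GFP retinas. It was thus above the floor in all 10 retinas, and the retina with the high Il1b count was near the middle. The group means were 2.39 ± 0.520 and 2.18 ± 0.105 CPM (SD, n = 5). The log2 fold change was -0.13 ± 0.23 (SE, edgeR adjusted p = 0.741). Leaving out AAV2-GFP replicate 5, the highest retina, moved the Il18 fold change to 0.0003. Il18 made up 9.61% of the summed level of the 10 genes in AAV2-GFP replicate 1 and between 28.4% and 50.7% in the other libraries. No motif searched was found in the printed window of either cytokine gene.

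Among the necroptosis genes, caspase-8 was the one with counts in every library. Casp8 (ENSMUSG00000026029), an initiator of apoptosis that also restrains RIPK3, had 3.53, 0.539, 1.86, 1.53 and 0.684 CPM in the AAV2-GFP retinas, and 1.18, 1.37, 1.04, 0.718 and 0.339 CPM in the AAV206-GFP retinas. AAV2-GFP replicates 1, 3 and 4 were the 3 highest, and replicates 2 and 5 lay within the AAV206-GFP range. Its log2 fold change was -0.80 ± 0.48 (SE, edgeR adjusted p = 0.291), and -0.33 without AAV2-GFP replicate 1 (edgeR adjusted p = 0.676). Ripk3 (ENSMUSG00000022221) had 0.452, 0, 0, 0 and 0.0854 CPM in the AAV2-GFP retinas, and 0, 0, 0, 0.0897 and 0 CPM in the AAV206-GFP retinas. These are 5 counts in the first AAV2-GFP library, 1 in the other 4 and 1 in the 5 AAV206-GFP libraries. The first is 0.452 CPM with a 95% exact Poisson interval of 0.147 to 1.06, and the AAV206-GFP sum is 0.0174 CPM with an interval of 0.000441 to 0.0971. Mlkl (ENSMUSG00000012519), the effector that RIPK3 activates, had 0.814, 0, 0, 0.0807 and 0.513 CPM in the AAV2-GFP retinas, and 0.0841, 0, 0.0863, 0 and 0.0848 CPM in the AAV206-GFP retinas. It exceeded 3 counts in AAV2-GFP replicates 1 and 5 and in no AAV206-GFP library. In replicate 5 the microglia and macrophage sum was 46.7 CPM and the monocyte and neutrophil sum 0.769 CPM. The T and NK lymphocyte sum was 0.854 CPM there and the B lymphocyte sum 0.684 CPM. None of these sums was the highest among AAV2-GFP replicates 2 to 5, and their part in the Mlkl value was not tested. In the fit without a filter, the log2 fold changes of Ripk3 and Mlkl were -2.03 and -2.21 (edgeR adjusted p = 0.415 and 0.296). Without AAV2-GFP replicate 1 they were -0.17 and -1.35 (edgeR adjusted p = 0.962 and 0.575). Differences between the vectors in these genes were not detectable at this depth.

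Levels of different genes were compared per kilobase of annotated exon, with all exons of a gene joined (GENCODE M21). With AAV206-GFP, Il18 stood highest at 2.11 ± 0.102 CPM per kilobase (SD, n = 5), followed by Casp8 at 0.321 ± 0.140, Pycard at 0.292 ± 0.181 and Gsdmd at 0.167 ± 0.0903. The step from Il18 to Casp8 exceeded the spread between retinas, whereas Casp8, Pycard and Gsdmd overlapped. The joined exons were 1031 bases for Il18, 2893 for Casp8 and 3800 for Pycard. Expressed transcripts can be shorter, and their lengths were not measured, so the order depends on the length used. In CPM without that scaling, the AAV206-GFP means were 2.18 for Il18, 1.11 for Pycard, 0.928 for Casp8 and 0.397 for Gsdmd. The other 6 genes were at or below 0.0640 CPM per kilobase on average. In AAV2-GFP replicate 1 the order was different, with Gsdmd at 2.59, Il18 at 2.19, Casp1 at 1.87, Casp8 at 1.22 and Il1b at 1.14 CPM per kilobase.

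The genes that act with these 10 were followed in a list of 65, of which 41 were tested. With edgeR, 2 of the 41 (4.88%) passed, 1 higher and 1 lower with AAV206-GFP, against 5.95% of all tested genes higher and 5.30% lower. The median log2 fold change over the 41 genes was -0.06, beside -0.01 over all tested genes. Il33 (ENSMUSG00000024810), an alarmin of the interleukin-1 family released from damaged cells, had 47.1, 37.8, 45.2, 38.96 and 40.9 CPM in the AAV2-GFP retinas, and 56.9, 55.8, 57.4, 49.3 and 48.1 CPM in the AAV206-GFP retinas. Every AAV206-GFP retina lay above every AAV2-GFP retina. Il33 rose, averaging 42.0 ± 4.01 and 53.5 ± 4.45 CPM (SD, n = 5). The log2 fold change was 0.35 ± 0.08 (SE, edgeR adjusted p = 0.0114), and Il33 passed in all 20 alternatives run. The retina with the high immune markers was the highest of its group for Il33. At 47.1 CPM it lay close under the lowest AAV206-GFP retina, at 48.1 CPM. Ninj1 (ENSMUSG00000037966), which drives the final rupture of the plasma membrane in lytic death, had 8.77, 7.28, 10.4, 6.78 and 6.41 CPM in the AAV2-GFP retinas, and 4.80, 4.47, 5.43, 6.37 and 5.94 CPM in the AAV206-GFP retinas. The lowest AAV2-GFP retina and the highest AAV206-GFP retina nearly met, without overlap. Ninj1 fell, averaging 7.92 ± 1.64 and 5.40 ± 0.784 CPM (SD, n = 5). The log2 fold change was -0.55 ± 0.17 (SE, edgeR adjusted p = 0.04999). It passed in 1 of 10 fits that each omitted a retina and in 5 of 10 other alternatives, with adjusted p-values from 0.0267 to 0.132. Some markers of other cell types were also called between the same groups, where 11.2% of all tested genes passed. Of 5 erythrocyte markers 4 were called higher with AAV206-GFP (sums of 100.6 to 319.2 CPM against 67.8 to 85.8 CPM), as were 1 of 5 rod and 2 of 5 cone markers. Of 5 endothelial markers 2 were called lower (sums of 151 to 177.9 CPM against 189.3 to 208.9 CPM). So were 1 of 4 tested pigment epithelium markers, 1 of 5 bipolar, 1 of 5 ganglion cell and 1 of 10 tested microglia and macrophage markers. Of 6 Mueller glia markers 0 were called. The part of these cell types in the Il33 and Ninj1 differences was not tested.

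**Figure D4:**
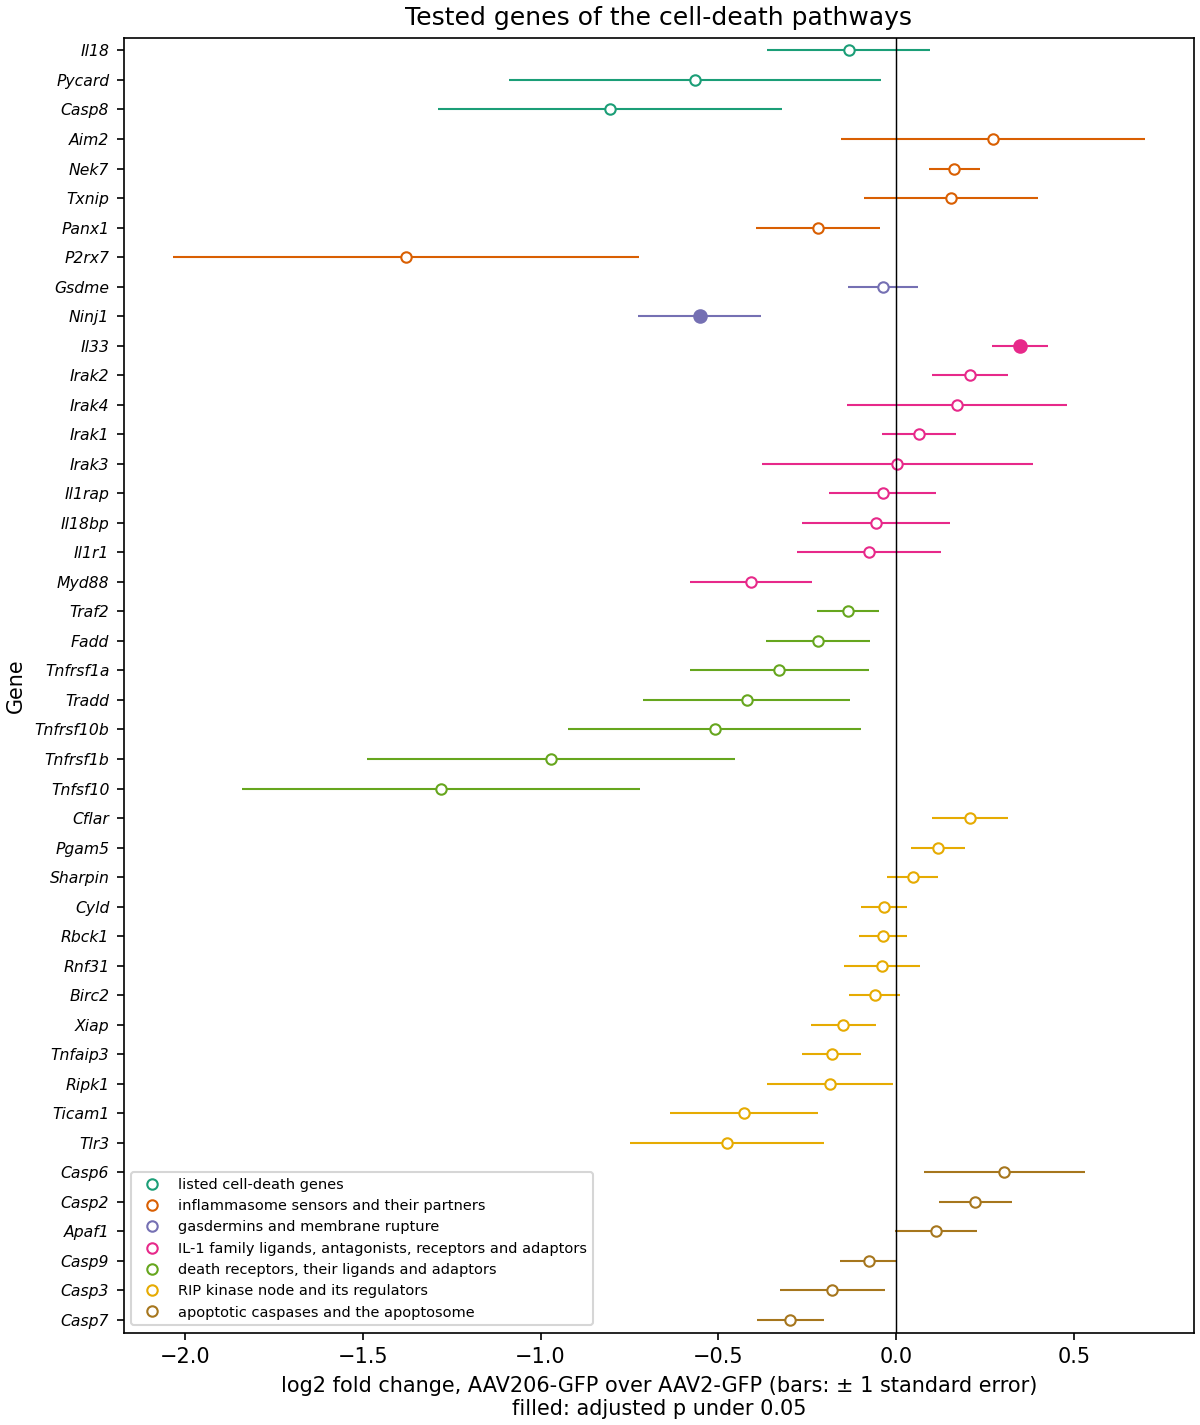
Log2 fold change of AAV206-GFP over AAV2-GFP (horizontal axis, bars ± 1 standard error) for the 3 tested genes of the 10 and the 41 tested pathway genes, coloured by role. Filled points mark Il33 (0.35) and Ninj1 (-0.55), the genes with an adjusted p-value under 0.05.

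By role, 1 of 9 tested genes of the interleukin-1 family and its receptors passed (Il33), as did 1 of 2 tested genes of the gasdermins and membrane rupture (Ninj1). None passed among 5 inflammasome sensors and partners, 7 death receptors, ligands and adaptors, 12 genes around the RIP kinases, and 6 apoptotic caspases and Apaf1. All 7 tested death receptor genes had a negative log2 fold change, from -1.28 to -0.13, as did 51.8% of all tested genes. Of the 10 listed in that group, 6 were highest in AAV2-GFP replicate 1. That library was highest for 11.25% of all tested genes and for 18.0% of the genes with counts too low to be tested. Without that retina 6 of the 7 were negative, and Tnfrsf1b, a tumour necrosis factor receptor, turned from -0.97 to 0.06. The most abundant tested gene of each other list did not pass the test. Nek7, a kinase that NLRP3 binds on activation, had 53.2 ± 4.03 and 59.7 ± 4.08 CPM (SD, n = 5), and a log2 fold change of 0.16 (edgeR adjusted p = 0.140). Gsdme, the gasdermin cleaved by caspase-3, had 24.9 ± 3.57 and 24.3 ± 1.43 CPM (SD, n = 5), and a log2 fold change of -0.04 (edgeR adjusted p = 0.837). That value turned to 0.05 without AAV2-GFP replicate 3. The caspase inhibitor Xiap had 663.8 ± 58.9 and 599 ± 82.5 CPM (SD, n = 5), and a log2 fold change of -0.15 (edgeR adjusted p = 0.305). It was -0.06 without AAV206-GFP replicate 1, the lowest retina. Traf2, an adaptor of tumour necrosis factor receptors, and Casp9, the caspase of the apoptosome, showed fold changes on the log2 scale of -0.13 and -0.08 (edgeR adjusted p = 0.330 and 0.567). Per kilobase of joined annotated exon (12742 and 2377 bases), Gsdme averaged 1.91 CPM with AAV206-GFP, beside 0.167 CPM for Gsdmd.

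Among the 24 pathway genes with counts too low to be tested, 16 were highest in AAV2-GFP replicate 1. The share was 18.0% over all genes with counts that were too low to be tested. Some of the 16 held very few counts in that library, such as Mefv with 1 and Nlrp1a with 2. The following were singled out after their values were seen. Zbp1, a nucleic acid sensor that engages RIPK3, had 6.33, 0.180, 0.464, 3.31 and 0 CPM in the AAV2-GFP retinas, and at most 0.449 CPM in the AAV206-GFP retinas. Both retinas with Zbp1 above 1 CPM, AAV2-GFP replicates 1 and 4, were also the 2 highest for Gsdmd. The interleukin-18 receptor subunits Il18r1 and Il18rap had 1.63 and 2.44 CPM in AAV2-GFP replicate 1, 0 in the other 4 AAV2-GFP retinas and at most 0.168 CPM with AAV206-GFP. Tnf and Il1rn, encoding tumour necrosis factor and the interleukin-1 receptor antagonist, had 0.814 and 0.723 CPM in that retina and 0 in the other 9. The Naip5 and Naip2 sensors of bacterial proteins had 3.80 and 3.07 CPM there and at most 0.547 and 0.365 CPM elsewhere, while Naip1 had 0.362 CPM there and its highest value, 0.538 CPM, in AAV206-GFP replicate 4. The Naip genes are close copies and their reads may be split wrongly.

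Genes outside both lists were ranked by how closely their levels followed the mean profile of Casp8, Pycard and Il18 over the 10 libraries. The measure was the root mean square difference in log2(CPM + 1) after centring each gene, over the 15253 genes that averaged 1 CPM or more. The 5 closest were Stat3, Rassf4, Samhd1, 9430091E24Rik and Bambi, with differences of 0.09, 0.10, 0.11, 0.12 and 0.13. Stat3, the closest, had 126.9, 67.7, 65.0, 70.7 and 71.0 CPM in the AAV2-GFP retinas, and between 61.7 and 74.1 CPM in the AAV206-GFP retinas. Its highest value was in AAV2-GFP replicate 1, as was that of the profile, which follows from the ranking. None of the 5 passed the test between vectors (edgeR adjusted p from 0.191 to 0.681). The genes were picked on these same values, so this describes the selection and is no separate result.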

How the data were processed

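Retinal RNA of 10 mice was sequenced as read pairs of 150 bases with the NEBNext Ultra RNA kit, per the labels. Whether counting used strand is not given in the sources used here, so genes that overlap an antisense gene are uncertain. The authors deposited estimated counts per gene, unscaled. The submitters' processing notes name STAR 2.7.10b, RSEM 1.3.1 and the build mm10, without roles; the annotation is not given in the sources used here. Of the 57010 identifiers, 52029 were named by GENCODE M21, whose coordinates are printed for gene positions only.

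Groups came from sample titles. Counts were rounded (5.95% of values carried decimals), filtered with filterByExpr (minimum count 10) and tested with the quasi-likelihood F test of edgeR 4.0.16 in R 4.3.3, with TMM scaling, no covariates and Benjamini-Hochberg adjustment (threshold 0.05). CPM are counts per TMM-adjusted library size, and means carry the SD over 5 mice. Nothing says whether the mice came from separate litters, so it is not known whether the samples are independent. The p-values set the difference between groups against the spread between these samples. Pairs of libraries in a group differed beyond sampling noise (chi-square per degree of freedom 3.62 to 21.3). On simulated counts for 15539 genes of this comparison, 86.6% of 2-fold and 61.6% of 1.5-fold changes were called, with 2 false calls among 147. The changed genes were drawn from tested genes of all levels, and no simulated library was made to stand apart. These shares therefore do not give the power for genes as low as Casp8, Pycard and Il18.

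Genes and lists were chosen with earlier results of these data known. Named pathway genes were those past the threshold (at most 20) and the most abundant of each list. Alternatives covered scaling, filters, DESeq2 1.42.0, limma-voom (limma 3.58.1, unrounded counts), robust dispersions, the replicate block and leaving out libraries. Fits without the filter that also left out libraries were added after seeing the data.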

Additional observations from a re-analysis of the deposited data

Results flagged for a closer look

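Within each group of 5, a retina was taken up when its gap to the nearest other retina, divided by the range of the group, exceeded 0.71 (Dixon's ratio at the 1 in 20 level). In 44 group values examined, 14 were found, 10 of them for AAV2-GFP replicate 1. The 1 in 20 level would give 2.2, but it holds for independent values with a normal distribution. Several values here were counts near 0, where 1 count among values of 0 passes the ratio. The 2.2 is therefore no measure of chance for these data. That retina was high for Casp1 (2.80 CPM against at most 0.323), Casp4 (0.904 against at most 0.161), Gsdmd (6.15 against at most 1.69), Il1b (2.17 against at most 0.180) and Ripk3 (0.452 against at most 0.0854). It was also high for the sum of the 10 genes (23.5 CPM) and for the marker sums of microglia and macrophages (309.5 CPM), monocytes and neutrophils (23.5 CPM), T and NK lymphocytes (24.1 CPM) and B lymphocytes (4.25 CPM). These values share 1 library and are not independent of each other.

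Among the AAV206-GFP retinas, Casp4 in replicate 1 (0.337 CPM, 4 counts) and Ripk3 in replicate 4 (0.0897 CPM, 1 count) lay above the others at counts near the floor. Xiap in AAV206-GFP replicate 1 was low, at 452.2 CPM against 624 to 647.6 CPM. The T and NK lymphocyte sum in AAV206-GFP replicate 5 was low, at 0.848 CPM against 1.21 to 1.35 CPM.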

How the results depend on the processing

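The number of all genes past the threshold, 1747 with edgeR, was within 1.5 times of that in most alternatives. It was 984 without AAV2-GFP replicates 1 and 4, and 991 to 1912 over the 10 fits that left out a library, lowest without AAV2-GFP replicate 4 (991) and next without AAV206-GFP replicates 4 (1056) and 2 (1074). With the replicate number as a block it was 1085, and 1 pathway gene and 0 of the 10 genes passed. No sign of pairing by number was seen. Deviations of same-numbered libraries correlated between -0.058 and 0.026, and no library correlated best with its own number. With so few libraries this cannot exclude pairing. The count of 0 among the 10 genes held in 19 of 20 alternatives and became 1, Gsdmd, without a filter on low counts. The 2 pathway genes became 1 under upper-quartile scaling, with limma-voom and without AAV2-GFP replicates 1 and 4, and 3 with DESeq2 or robust dispersions. Over the fits that left out a library they ranged from 1 to 3, being 1 without AAV2-GFP replicate 2, 3 or 4 or AAV206-GFP replicate 1, 2, 3 or 5, and 3 without AAV2-GFP replicate 1. Il33 was among the genes called in every one of these. The other genes called were not always the same. Without AAV2-GFP replicate 1, only 1 of the 3 was also called in the main edgeR fit, and Ninj1 was lost (edgeR adjusted p = 0.0771). Without a filter, and without AAV206-GFP replicate 4, 2 genes passed, of which 1 was called in the main fit. The Il18 fold change ranged from -0.2147 to 0.0003, turning without AAV2-GFP replicate 5, and that of Gsdme from -0.0945 to 0.0454, turning without AAV2-GFP replicate 3, over the fits that left out a library. Without a filter, leaving out AAV2-GFP replicate 1 turned the log2 fold changes of Casp4, Nlrp3 and Il1b to 0.08, 0.345 and 0.8698, and leaving out replicates 1 and 4 turned them to 0.5805, 0.6473 and 0.5162. Those genes had at most 26 counts in a group, so at this depth their direction rests on 1 library.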
